A study of Mus musculus with 9 samples.

Results

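The nuclear-encoded subunits of the mitochondrial respiratory chain and of ATP synthase were followed across the retinas of 3 groups of mice. Members were taken from the array by gene symbol: Nduf followed by a, b, c, s or v and a digit (complex I), the 4 Sdh genes (complex II), Uqcr (complex III), Cox4 to Cox8 (complex IV) and Atp5 (complex V). The muscle isoforms Cox6a2, Cox7a1 and Cox8b were left out. This gave 80 genes on 109 probes, of 19751 genes with a symbol on the array: 37 in complex I, 4 in complex II, 8 in complex III, 15 in complex IV and 16 in complex V. The rule goes by name, so Ndufa4, now regarded as a complex IV subunit, Ndufa4l2, its paralog, and Cox7a2l, a factor of respiratory supercomplexes, are counted where their symbols put them.

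All mice were adult male C57BL/6 animals, and only the right eye was injected into the vitreous. PBS (phosphate-buffered saline) was the control, and AAP and HAN are peptides that the series title describes as binding vascular endothelial growth factor with high affinity. The labels give 1 µM for all 3 groups, PBS among them, and the retinas were taken 7 days later. Each group had 12 mice and 3 arrays, each array measured the pooled RNA of 4 retinas, and the p-values measure the spread between such pools. No uninjected eye was among the samples used here.

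Oxidative phosphorylation passes electrons from NADH (complex I) and succinate (complex II) through complex III to oxygen at complex IV, and the proton gradient built on the way drives ATP synthesis by complex V. The catalytic core of complexes I, III and IV is partly encoded by mitochondrial DNA, while the subunits followed here are transcribed in the nucleus. Photoreceptors, whose inner segments are packed with mitochondria, are among the most energy-demanding cells of the body. None of the 13 mitochondrially encoded subunits was named among the array's probes by the reference table used, and they are not analysed here.

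The nuclear factors NRF1 and GABPA (an ETS family factor) are known regulators of these genes, and YY1 and the oestrogen-related receptors (ERR) are others. RefSeq promoters of 300 bases (250 before the start, build GRCm38.p6) were in the table for 65 members, 70 promoters in all, and 15 members had no entry. They were searched on both strands for fixed letters. The NRF1 core GCGCNTGCG was found in 25 of 70 member promoters (35.7%), against 6.31% of all 32851 promoters. The ETS letters CCGGAAG were in 24.3% against 8.86%, the YY1 letters AAGATGGCG in 10.0% against 1.40%, and the ERR letters AAGGTCA in 11.4% against 4.72%. The SP1 letters GGGCGG, which are common in CpG-rich promoters, were in 41.4% against 35.7%. The median GC content of the promoters was 58.0% for members and 52.7% for all, and its part in these shares was not tested. By complex, the NRF1 core was in the promoters of 9 of 32 members of complex I, 2 of 3 of complex II, 3 of 5 of complex III, 1 of 11 of complex IV and 9 of 14 of complex V. Any of the NRF1, ETS and YY1 letters were present for 39 members, and more than 1 of the 3 for 9. A match describes the letters and not a bound site.

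**Figure D1:**
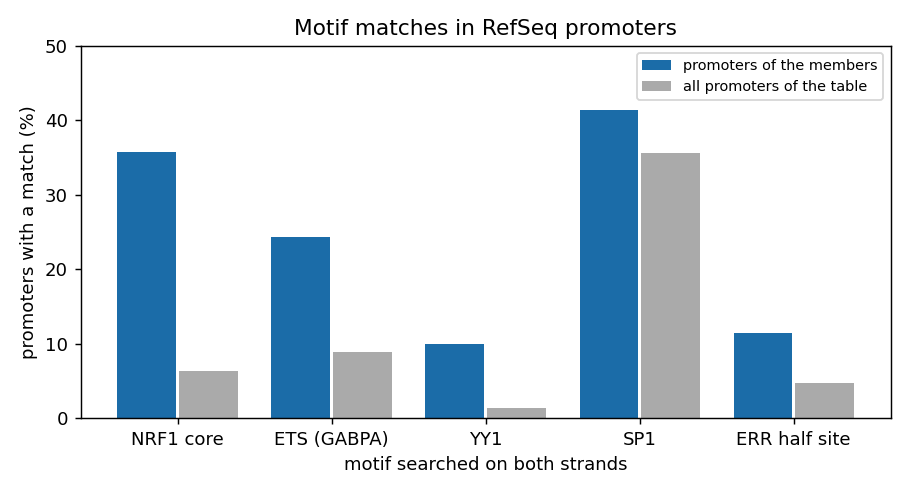
Share of RefSeq promoters (%) that hold each motif on either strand, for the 70 promoters of the members (blue) and all 32851 promoters of the table (grey). The NRF1 core stands at 35.7% against 6.31%, while SP1 is nearly as common in all promoters (35.7%) as in the members' (41.4%).

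The promoter stretches below show how these letters lie before the RefSeq start (5′ to 3′ in the direction of the gene, ending at the last base before the start, build GRCm38.p6). Atp5l is shown with 250 bases because several results turn on it, and the others with 120 because they hold dense or mixed matches. Capitals mark the NRF1, ETS and YY1 letters on either strand.
Atp5l, chr9:44920743-44920992, minus strand: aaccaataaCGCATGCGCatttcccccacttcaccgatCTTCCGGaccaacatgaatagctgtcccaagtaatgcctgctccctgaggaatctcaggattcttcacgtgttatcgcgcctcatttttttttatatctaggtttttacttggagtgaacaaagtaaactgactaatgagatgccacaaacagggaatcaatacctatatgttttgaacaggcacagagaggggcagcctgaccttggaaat
Atp5k, chr5:108434400-108434519, minus strand: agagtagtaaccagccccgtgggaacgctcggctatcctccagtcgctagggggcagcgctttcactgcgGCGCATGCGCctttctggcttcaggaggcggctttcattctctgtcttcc
Atp5j, chr16:84834977-84835096, minus strand: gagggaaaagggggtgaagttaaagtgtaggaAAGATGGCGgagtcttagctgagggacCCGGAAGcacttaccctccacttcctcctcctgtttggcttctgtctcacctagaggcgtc
Sdha, chr13:74350241-74350360, minus strand: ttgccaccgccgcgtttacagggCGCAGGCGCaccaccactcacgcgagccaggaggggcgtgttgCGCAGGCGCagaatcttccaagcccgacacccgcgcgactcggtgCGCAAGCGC
Sdhd, chr9:50603850-50603969, minus strand: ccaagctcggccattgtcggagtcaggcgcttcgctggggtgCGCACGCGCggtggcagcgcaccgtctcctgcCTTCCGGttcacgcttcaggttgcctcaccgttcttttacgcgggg
Cox6a1, chr5:115348959-115349078, minus strand: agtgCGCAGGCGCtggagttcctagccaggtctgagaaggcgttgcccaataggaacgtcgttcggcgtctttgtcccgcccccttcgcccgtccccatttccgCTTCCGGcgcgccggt
Atp5l and Cox6a1 hold an NRF1 and an ETS match, as does Sdhd. Sdha holds 3 NRF1 matches. In Atp5k the capitals are 2 NRF1 matches that overlap, one on each strand. Atp5j joins the YY1 and ETS letters, and its other start in the table holds none of the letters in the same length. Cox7c, Ndufa4 and Cox7b, which are described below, held none of the NRF1, ETS and YY1 letters in the 300 bases.

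The members gave strong probe signals. A level is the log2 of the processed spot signal minus the array's 75th percentile, and a gene is read from its brightest probe. Of the 80 members, 78 were tested and each of these was well above background on all 9 arrays. The other 2, Cox7b2 and Cox8c, germline forms of cytochrome c oxidase subunits, were well above background on 1 array each and were left out. Ranked by probe signal, 62 of the 78 lay among the brightest 10% of the 23889 genes tested, and their median percentile was 95.7. Their replicate spread was small: the median SD over the 3 pools was 0.08 in PBS, 0.08 in AAP and 0.08 in HAN, against 0.10, 0.14 and 0.10 over all genes. The 95% interval of a member's difference reached 0.18 on the log2 scale to either side at the median, or 1.13-fold.

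No member passed the threshold of limma's moderated test (adjusted p under 0.05 over all 23889 genes) in any of the 3 comparisons. Against PBS, the AAP pools were close to the control for the members as a whole, while in HAN nearly all members had means slightly below PBS. The sizes were small: the difference of means was within 1.2-fold for 76 of 78 members in AAP against PBS, for 77 in HAN against PBS and for 72 in AAP against HAN. The 95% interval lay inside 1.5-fold for 77, 76 and 73 members in the same order. HAN against PBS and AAP against PBS share their 3 control pools, so their directions are not independent of each other.

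**Figure D2:**
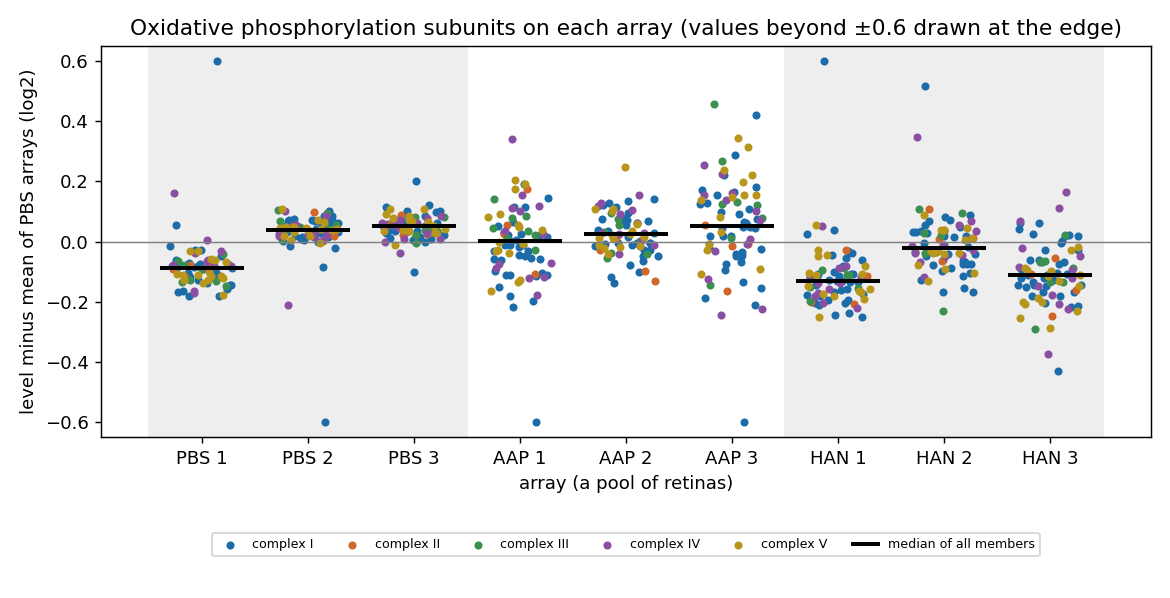
Level of each of the 78 members minus its mean over the PBS arrays (log2) on each of the 9 arrays, coloured by complex, with the median of all members as a bar and values beyond 0.6 drawn at the edge. The bars of HAN 1 (-0.13) and HAN 3 (-0.11) lie lowest, near that of PBS 1 (-0.09), and the bars of the AAP arrays lie between 0.00 and 0.05.

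Array by array, the median member stood at -0.09, 0.04 and 0.05 on the PBS arrays relative to their own mean. It stood at 0.00, 0.02 and 0.05 on the AAP arrays, and at -0.13, -0.02 and -0.11 on the HAN arrays. PBS 1 lay between HAN 2 and HAN 3, so the groups overlapped. The members moved together from array to array: 4 of 78 were above the PBS mean on PBS 1 against 71 and 72 on PBS 2 and PBS 3. These 3 counts are tied to each other, because the reference is the mean of the same arrays. On HAN 1, HAN 2 and HAN 3 the numbers were 5, 34 and 12. The 3 AAP arrays had 39, 47 and 49, a mix of members above and below the control.

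Other strongly expressed genes also lay lowest on HAN 1, PBS 1 and HAN 3. The 2324 further genes among the brightest 10% had medians of -0.07, 0.03 and 0.04 on the PBS arrays, -0.05, 0.04 and 0.05 on the AAP arrays, and -0.09, -0.03 and -0.07 on the HAN arrays. The largest gap between the members and these genes on one array was 0.05, on AAP 1, where the members were the higher. On HAN 1 and HAN 3 the members minus these genes gave -0.04 each. The signal at the 75th percentile, which sets the scale of each array, ran from 1340 (AAP 3) to 2349 (PBS 1), and the part of array brightness in the members' shift was not tested.

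**Figure D3:**
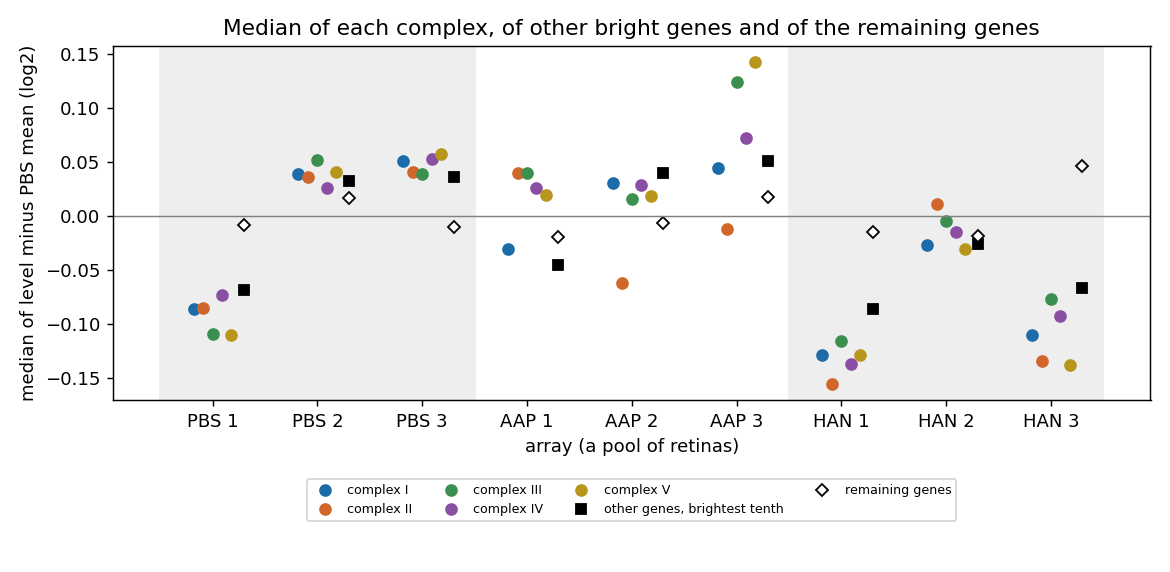
Median level minus PBS mean (log2) of the members of each complex (coloured circles), of the 2324 other genes among the brightest 10% (black squares) and of the remaining 21472 genes (open diamonds) on each array. The complexes and the other bright genes lie low together on PBS 1, HAN 1 and HAN 3; on AAP 3 complexes III and V stand at 0.12 and 0.14, above the bright genes at 0.05.

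In AAP against PBS, 49 members had a higher mean and 29 a lower one, with a median difference of 0.03 (all genes 0.00). None was called at the adjusted threshold, where 0.00419% of all genes were (lowest adjusted p of a member 0.674, limma). At an unadjusted p under 0.05 there were 2 members higher and 1 lower, 3 of 78, where 6.78% of all genes passed. Groups did not overlap for 7 members with AAP higher and 1 with AAP lower, beside 6.43% and 5.53% of all genes. The split depended on the scale, with 41 higher and 37 lower after quantile normalisation, and 32 higher and 46 lower with the array median as scale. Without PBS 1 it was 29 higher and 49 lower, with a median of -0.02.

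In HAN against PBS, 73 members were lower and 5 higher, with a median difference of -0.09 (all genes 0.00). None was called, again beside 0.00419% of all genes (lowest adjusted p 0.472, limma). At an unadjusted p under 0.05 there were 5 members, all lower in HAN, beside 9.66% of all genes. Groups did not overlap for 8 members with HAN lower and 0 with HAN higher, beside 10.4% and 10.4% of all genes. The share with HAN lower was near that of all genes. The 5 members with a higher mean in HAN were Ndufa4l2, Cox6b2, Ndufs7, Ndufa12 and Ndufs3, the last pair named only because the count is small. After quantile normalisation 55 were lower and 23 higher. With 1 array left out in turn, 63 to 75 were lower. Of the 2324 other genes among the brightest 10%, 1614 were lower and 710 higher (median -0.06). Groups did not overlap for 473 of these 2324 genes with HAN lower and for 211 with HAN higher.

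In AAP against HAN, 69 members were higher in AAP and 9 lower, with a median difference of 0.12 (all genes 0.00). None was called, as for 0% of all genes (lowest adjusted p 0.574, limma). At an unadjusted p under 0.05 there were 18 members higher in AAP and 1 lower, 19 of 78, where 8.54% of all genes passed. Groups did not overlap for 30 members with AAP higher and 2 with AAP lower, where the shares of all genes were 7.52% and 6.82%. After quantile normalisation 57 were higher and 21 lower, with a median of 0.06. With 1 array left out in turn, 61 to 74 were higher. The other genes among the brightest 10% also leaned this way: 1759 were higher and 565 lower (median 0.07). Groups did not overlap for 368 of these 2324 genes with AAP higher and for 45 with AAP lower.

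**Figure D4:**
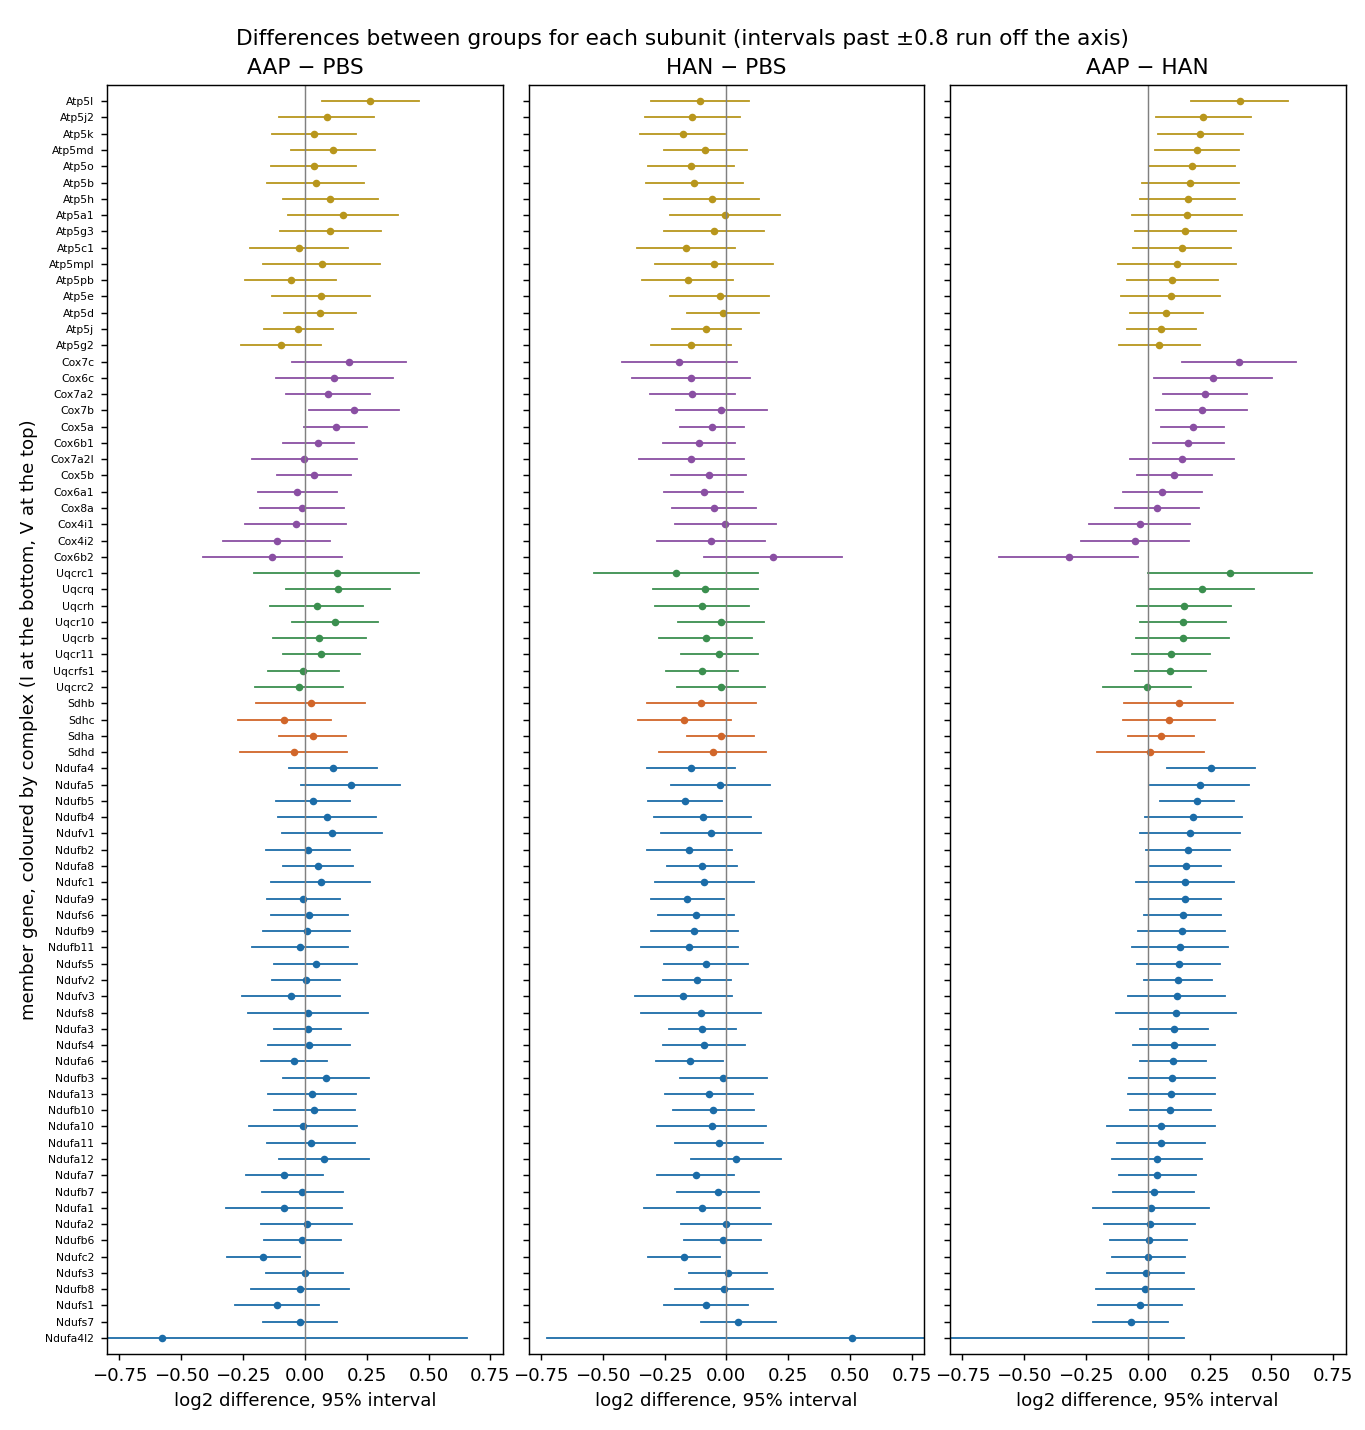
Difference of group means (log2) with its 95% interval for 77 of the 78 members in each of the 3 comparisons, ordered and coloured by complex. Most points of the HAN panel lie left of 0 (72 of 77) and most of the AAP against HAN panel right of it (68 of 77), and 19 intervals there exclude 0.

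The medians of the 5 complexes lay close to each other. In HAN against PBS their medians were -0.09, -0.08, -0.08, -0.07 and -0.10 for complexes I to V, and all members of complexes II, III and V had lower means, as did 33 of 37 in complex I and 12 of 13 in complex IV. In AAP against PBS the medians were 0.01, -0.01, 0.06, 0.04 and 0.06. In AAP against HAN they were 0.11, 0.07, 0.14, 0.14 and 0.16, and all 16 members of complex V were higher in AAP. No difference between complexes was tested. With the slide as a block the HAN against PBS median of complex II turned to 0.06.

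Complex I takes electrons from NADH. Its NADH-binding subunit Ndufv1 read 4.76, 4.99 and 5.03 in PBS, 4.96, 5.0 and 5.15 in AAP, and 4.82, 4.88 and 4.90 in HAN. AAP and HAN did not overlap, with a difference of 0.17, and both overlapped PBS. Ndufs1, the largest iron-sulfur subunit, differed by -0.11 in AAP and -0.08 in HAN, with overlapping groups. Ndufs7, which carries the last iron-sulfur cluster before quinone, was among the few members above PBS in HAN, by 0.05.

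Among the accessory subunits, Ndufc2, of the membrane arm, had lower means in both peptide groups. It read 4.05, 4.17 and 4.17 in PBS, 3.93, 4.01 and 3.94 in AAP, and 3.89, 4.0 and 3.98 in HAN. Neither peptide group overlapped PBS. The differences were -0.17 (95% interval -0.31 to -0.02, adjusted p = 0.703, limma) and -0.17 (-0.32 to -0.02, adjusted p = 0.472), both measured against the same control pools. The interval of its difference between AAP and HAN ran from -0.14 to 0.15.

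Ndufb5, another membrane arm subunit, read 3.25, 3.35 and 3.38 in PBS, 3.35, 3.36 and 3.37 in AAP, and 3.12, 3.26 and 3.12 in HAN. The HAN difference from PBS was -0.17 with overlapping groups. Ndufa6, at the peripheral arm, read 2.89, 2.92 and 2.94 in PBS against 2.74, 2.82 and 2.75 in HAN, where the groups did not overlap. Its difference was -0.15 and did not pass the threshold. With Ndufa9 (-0.16, named here because the count is small) and Atp5k of complex V, these were the 5 members at an unadjusted p under 0.05 in HAN against PBS.

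Ndufa5 read 4.47, 4.71 and 4.73 in PBS, 4.78, 4.76 and 4.92 in AAP, and 4.57, 4.62 and 4.64 in HAN. All AAP pools were above all others, and the difference from PBS was 0.19 (95% interval -0.01 to 0.39). A further, dimmer probe of Ndufa5 gave 0.06. Ndufv3, a small subunit beside the NADH-binding site, differed from PBS by -0.17 in HAN with overlapping groups. Most of the members of complex I that are not named here differed by -0.01 to 0.19 between AAP and HAN.

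In complex II, which oxidises succinate in the tricarboxylic acid cycle, the flavoprotein Sdha showed small differences. It read 3.59, 3.72 and 3.70 in PBS, 3.70, 3.69 and 3.73 in AAP, and 3.64, 3.68 and 3.62 in HAN. The AAP and HAN pools did not overlap, though the difference was only 0.05. The iron-sulfur subunit Sdhb read 3.66, 3.75 and 3.84 in PBS, 3.92, 3.65 and 3.74 in AAP, and 3.54, 3.76 and 3.64 in HAN. Its highest pool was AAP 1. The membrane anchors Sdhc and Sdhd differed from PBS by -0.08 and -0.05 in AAP and by -0.17 and -0.05 in HAN, with overlapping groups.

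Complex III hands electrons to cytochrome c. Uqcrc1, a core protein, read 1.70, 1.95 and 1.88 in PBS, 1.82, 1.80 and 2.30 in AAP, and 1.75, 1.62 and 1.55 in HAN. The AAP mean was raised by AAP 3 alone, and AAP against HAN gave 0.33. The other core protein, Uqcrc2, differed by -0.03 in AAP and -0.02 in HAN. The Rieske iron-sulfur protein Uqcrfs1 differed by -0.01 in AAP and -0.10 in HAN. Uqcrq, a small subunit, read 4.90, 5.07 and 5.11 in PBS, 5.10, 5.08 and 5.29 in AAP, and 4.88, 5.05 and 4.89 in HAN, so that AAP lay above HAN by 0.22. Uqcrh, the acidic hinge protein beside cytochrome c1, gave 0.15 in the same comparison, with groups that did not overlap. The other 3 members of complex III, Uqcr10, Uqcr11 and Uqcrb, lay above HAN in AAP by 0.09 to 0.14.

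In complex IV, cytochrome c oxidase, the small subunit Cox7c had the widest gap between the peptides. It read 3.35, 3.43 and 3.51 in PBS, 3.58, 3.58 and 3.65 in AAP, and 3.22, 3.44 and 3.05 in HAN. All AAP pools were above all PBS and HAN pools, while HAN overlapped PBS. AAP against HAN gave 0.37 (95% interval 0.14 to 0.60, adjusted p = 0.574, limma), and 2 further probes of the gene gave 0.17 and 0.22. The probe with 0.22 was far dimmer, at a mean level of -4.33 against 3.42 for the brightest. Cox7b read 4.06, 4.11 and 4.10 in PBS, 4.43, 4.18 and 4.25 in AAP, and 4.01, 4.16 and 4.04 in HAN. AAP 1 was its highest pool, and the AAP difference of 0.20 from PBS came to 0.13 without that array.

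Cox7a2 read 3.53, 3.63 and 3.66 in PBS, 3.73, 3.64 and 3.75 in AAP, and 3.45, 3.58 and 3.38 in HAN, and AAP lay above HAN by 0.23. Cox6c read 5.06, 5.32 and 5.31 in PBS, 5.34, 5.22 and 5.49 in AAP, and 5.01, 5.19 and 5.05 in HAN, a difference of 0.26 between the peptides. The pair of subunit IV isoforms had slightly lower means in AAP than in HAN, with overlapping groups. Cox4i1, the common form, differed by -0.03 between AAP and HAN, and Cox4i2, known as the lung and hypoxia-responsive form, by -0.05. Cox5a, named after its values were seen because its pools were so tight, read 4.76, 4.85 and 4.85 in PBS, 4.92, 4.94 and 4.97 in AAP, and 4.73, 4.75 and 4.80 in HAN. AAP lay above both other groups without overlap, by 0.12 over PBS and 0.18 over HAN. Cox5b differed by 0.11 between the peptides.

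Ndufa4, now placed in complex IV, read 4.41, 4.49 and 4.55 in PBS, 4.67, 4.46 and 4.66 in AAP, and 4.35, 4.33 and 4.34 in HAN. All HAN pools lay below all PBS and AAP pools. The difference between the peptides was 0.26 (95% interval 0.08 to 0.43, adjusted p = 0.574, limma), and it came to 0.11 with AAP 1 and AAP 3 left out.

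Complex V makes ATP. Its catalytic head subunits Atp5a1 and Atp5b differed from PBS by 0.15 and 0.04 in AAP and by -0.01 and -0.13 in HAN, with overlapping groups. Atp5b read 6.34, 6.51 and 6.55 in PBS, 6.43, 6.48 and 6.62 in AAP, and 6.30, 6.43 and 6.28 in HAN. Atp5c1, the central stalk, and Atp5pb, of the outer stalk, differed from PBS by -0.16 and -0.16 in HAN. Atp5g2, of the rotor ring, read 5.16, 5.33 and 5.31 in PBS, 5.10, 5.25 and 5.16 in AAP, and 5.10, 5.13 and 5.14 in HAN. Its HAN pools lay just below all PBS pools. The members of complex V that are not named here differed by 0.08 to 0.20 between AAP and HAN.

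Atp5l, which encodes subunit g at the membrane base of the enzyme, had the smallest p of all members. It read 4.73, 4.85 and 4.95 in PBS, 5.05, 5.09 and 5.19 in AAP, and 4.80, 4.80 and 4.61 in HAN. All AAP pools were above all others. AAP against PBS gave 0.27 (95% interval 0.07 to 0.46, adjusted p = 0.674, limma) and AAP against HAN 0.37 (0.18 to 0.57, adjusted p = 0.574), which missed the threshold in both. It is the member with the most probes on the array. All 5 probes lay higher in AAP than in HAN, by 0.26 to 0.37, and the brightest, which represents the gene, gave the largest value. In AAP against PBS its other probes gave 0.11 to 0.13, less than the 0.27 of the brightest.

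Its neighbours at the membrane base also lay higher in AAP than in HAN, by less. Atp5k, subunit e, read 4.27, 4.45 and 4.41 in PBS, 4.46, 4.41 and 4.37 in AAP, and 4.12, 4.30 and 4.17 in HAN. The differences were -0.18 for HAN against PBS and 0.21 for AAP against HAN. A further probe of Atp5k, nearly as bright, gave -0.06 and 0.14 in the same order. Atp5j2, subunit f, read 4.69, 4.84 and 4.93 in PBS, 4.92, 4.84 and 4.97 in AAP, and 4.64, 4.79 and 4.62 in HAN, a difference of 0.22 between the peptides. AAP and HAN did not overlap in either gene.

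A pair of members lay lower in AAP than in HAN without overlap. Ndufa4l2, a paralog of Ndufa4 that is known to be induced by hypoxia, read -0.83, -3.04 and -2.09 in PBS, -2.93, -2.04 and -2.74 in AAP, and -1.02, -1.47 and -1.95 in HAN. It varied more between pools than any other member, with an SD of 1.11 in PBS, and AAP minus HAN was -1.09. Cox6b2, known as the testis form of its subunit, read -0.50, -0.87 and -0.62 in PBS, -0.84, -0.66 and -0.89 in AAP, and -0.61, -0.32 and -0.50 in HAN. AAP minus HAN was -0.32 (95% interval -0.60 to -0.04), while Cox6b1, the common form, gave 0.16.

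Both genes were lowest on the 3 arrays with the least lens RNA. The median of 14 lens markers relative to PBS was 1.21, -2.19 and 1.06 on the PBS arrays, -1.33, 2.47 and -2.08 on the AAP arrays, and 0.67, 1.54 and 1.27 on the HAN arrays. Ndufa4l2 and Cox6b2 had their lowest values on PBS 2, AAP 1 and AAP 3, where the lens markers were low. On AAP 2, with the most lens RNA, neither was high. All 14 lens markers were well above background on all arrays, and their summed level ran from 103 to 911 in PBS, from 128 to 1525 in AAP and from 733 to 1051 in HAN. The part of lens RNA in these values was not tested. Without PBS 1 the AAP difference of Ndufa4l2 from PBS was 0.00, against -0.58 with it.

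**Figure D5:**
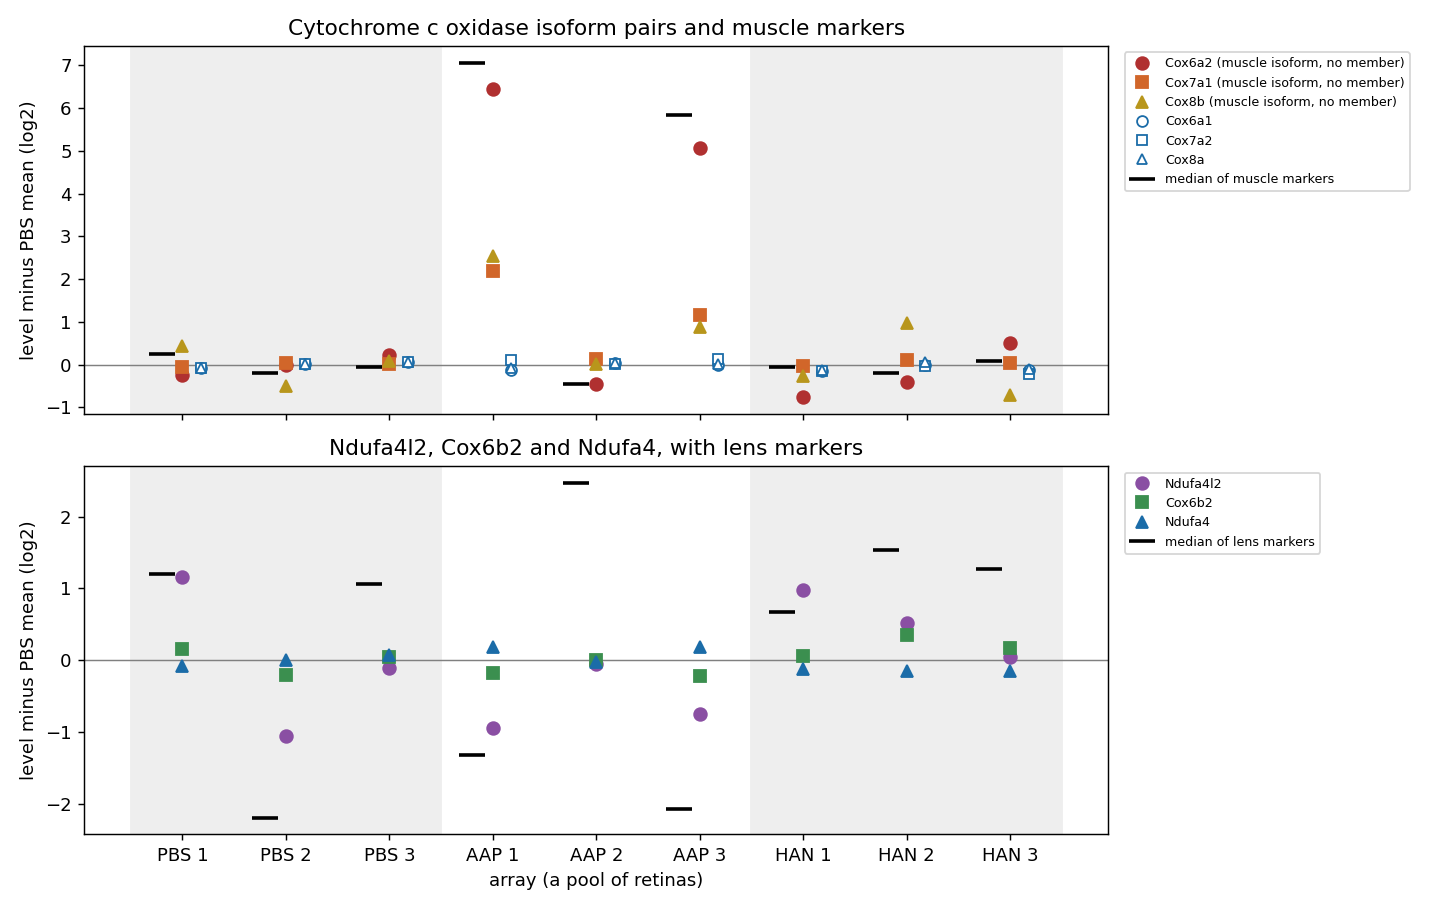
Level minus PBS mean (log2) on each array: above, the muscle isoforms Cox6a2, Cox7a1 and Cox8b (filled) and their common counterparts among the members (open) with the median of the muscle markers (bars); below, Ndufa4l2, Cox6b2 and Ndufa4 with the median of the lens markers. Cox6a2 and Cox7a1 stand out on AAP 1 and AAP 3, where the muscle markers reach 7.07 and 5.84, and the open symbols stay near 0 on all arrays.

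The muscle isoforms left out by the rule were high on AAP 1 and AAP 3. Cox6a2 was 88.0-fold and 33.8-fold above the PBS mean on these arrays and 0.726-fold on AAP 2. Cox7a1 was 4.56-fold and 2.24-fold above it, and Cox8b 5.80-fold and 1.85-fold, with 1.95-fold on HAN 2. The medians of the skeletal muscle markers were 7.07, -0.45 and 5.84 on the AAP arrays, and the summed level of all 14 ran from 2.46 to 2.83 in PBS, from 2.97 to 124 in AAP and from 2.78 to 3.06 in HAN. The common counterparts Cox6a1, Cox7a2 and Cox8a differed from PBS by -0.03, 0.09 and -0.01 in AAP. With AAP 1 and AAP 3 left out, AAP 2 was the only AAP array. The median member was then at 0.02 in AAP against PBS and 0.11 in AAP against HAN, beside 0.03 and 0.12 with all arrays. The part of muscle RNA in the members' values was not tested.

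Markers of retinal cell types were read in the same way, and all 10 rod markers were well above background on all 9 arrays. The median of the rod markers was 0.00 in AAP and -0.17 in HAN against PBS, and 0.20 in AAP against HAN, with 9 of 10 lower in HAN than in PBS. By array, relative to the PBS mean, it was -0.15, 0.10 and 0.06 in PBS and -0.16, 0.01 and 0.22 in AAP. In HAN it was -0.18, -0.15 and -0.20, so PBS 1 and AAP 1 were about as low. The 6 ganglion cell markers were higher in both peptide groups, with medians of 0.17 and 0.27, and the 8 microglia and macrophage markers were lower in both, by medians of -0.81 and -0.63. Against PBS, the cone markers had medians of -0.10 in AAP and -0.07 in HAN. Bipolar cell markers had 0.08 and 0.00, Mueller glia markers -0.06 and 0.04, and pigment epithelium markers 0.32 and -0.35. The pigment epithelium values were uneven, with medians of 1.00, -0.07 and -0.06 on the AAP arrays and -0.20, 0.05 and -0.77 on the HAN arrays. Against PBS, 5 of these 8 markers were higher in AAP and 3 lower. None of these markers passed the adjusted threshold. In pooled tissue, fewer cells of a type and less RNA per cell cannot be told apart, and the part of cell composition in the members' values was not tested.

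The genes around the respiratory chain were read from lists of the pathway, and no gene of these lists passed the adjusted threshold. The 44 assembly factors, which build the complexes but are not part of them, had medians of -0.03 in AAP and -0.05 in HAN against PBS and 0.00 between the peptides, with 22 of 44 higher in AAP than in HAN. Cox17, a copper chaperone of complex IV, read -2.76, -2.87 and -3.01 in PBS, -2.88, -1.67 and -2.84 in AAP, and -3.44, -3.20 and -4.20 in HAN. Its HAN pools lay below all others, and its AAP against HAN difference of 1.15 leaned on AAP 2 and HAN 3. Taco1, a translational activator of a mitochondrially encoded oxidase subunit, gave 0.23 in the same comparison.

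Of the 16 regulators of mitochondrial biogenesis, 11 had higher and 5 lower means in AAP than in PBS (median 0.07), and 8 and 8 in HAN (median 0.00). Ppargc1a, the coactivator PGC-1alpha, read 1.81, 1.95 and 1.78 in PBS, 1.83, 1.94 and 2.25 in AAP, and 1.98, 2.23 and 2.23 in HAN, and its HAN pools lay above all PBS pools. Polrmt, the mitochondrial RNA polymerase, was 0.23 higher in AAP than in PBS without overlap. Esrrg, an oestrogen-related receptor, gave -0.32, also without overlap. Nrf1 and Gabpa, which encode the factors whose letters were searched above, differed from PBS by 0.12 and 0.05 in AAP and by 0.03 and -0.06 in HAN.

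Upstream of the chain, the 18 genes of the tricarboxylic acid cycle had medians of -0.01 and -0.03 against PBS and 0.02 between the peptides. The 19 glycolytic genes had -0.03, -0.08 and 0.02. The 10 tested carriers of adenine nucleotides and phosphate had 0.00, -0.08 and 0.12, with 8 of 10 higher in AAP than in HAN. Within this list Ckmt2, the mitochondrial creatine kinase of striated muscle, read -3.40, -6.96 and -5.45 in PBS and 2.51, -4.63 and 0.55 in AAP, and was high on AAP 1 and AAP 3, the arrays that carried the muscle markers. The 8 subunits and electron carriers outside the rule, such as cytochrome c (Cycs), had 0.05, -0.05 and 0.09.

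Of the 22 members with several probes, the probes of 18 shared a direction in AAP against PBS, of 22 in HAN against PBS and of 21 in AAP against HAN. PBS 1, PBS 2, PBS 3 and AAP 1 shared a slide, AAP 2, AAP 3, HAN 1 and HAN 2 another, and HAN 3 lay on a slide of its own. With the slide as a block, the members' medians were 0.00 in AAP against PBS, -0.13 in HAN against PBS and 0.12 in AAP against HAN. The first of these rests on AAP 1, the only AAP array beside the controls, and no slide held both HAN and PBS. The last rests on AAP 2 and AAP 3 against HAN 1 and HAN 2, which shared a slide, without AAP 1 and HAN 3.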

How the data were processed

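Retinal RNA was measured on 9 single-colour (Cy3) Agilent arrays. Per the file headers, the deposited processed signal is a spot intensity on a linear scale from Feature Extraction 11.0.1.1 (protocol GE1_1100_Jul11, design annotated on mm9), background-subtracted within each array and not normalised between arrays. The deposited value table held the same intensity: at least 99.7% of values per array agreed within a relative tolerance of 0.0001.

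Control and outlier spots were dropped, log2 of the signal minus the array's 75th percentile was taken, and spots of a probe were averaged. Probes entered the fit if some group had them well above background on each of its arrays. The brightest such probe, by its mean over 9 arrays, stood for a gene. Probes were named through their RefSeq accession in a GRCm38.p6 gene table, and no gene coordinates were taken from it. limma 3.58.1 (R 4.3.3; lmFit and eBayes, two-sided) fitted a mean per group over all 9 arrays to 23889 genes, with Benjamini-Hochberg adjustment and a threshold of 0.05 (6 residual and 1.85 prior degrees of freedom). The fit was tested on simulated data. Of the spots, 71.6% to 79.2% were well above background, and the 3 arrays per group limit the precision.

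Members named are those with the 3 smallest p in a comparison, the 2 largest rises and falls in each complex, and fixed core and paired subunits, 37 in all, with at most 3 genes of the smallest p from each list. Further names, and Nrf1, Gabpa and Ndufa12 among them, were chosen after their values were seen. One named member is not reported here. The members and lists were chosen with earlier results of these data known. Alternatives were normexp (on the median spot signal, offset 50), quantile and array-median scaling, other probe filters, the value table, replicate and slide blocks, array weights and arrays left out. Leaving out AAP 1 and AAP 3 together was added after seeing the data. Same-numbered arrays of different groups correlated from -0.28 to 0.40 in their deviations, and differently numbered ones from -0.62 to 0.54. With 3 arrays per group these values cannot decide whether the numbers pair the samples. The main fit left them unpaired.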

Additional observations from a re-analysis of the deposited data

How the results depend on the processing

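No member was called under any of the 21 alternatives in any comparison, and the lowest adjusted p of a named member was 0.167. Of 2331 values of named members under the alternatives, 2243 stayed within the replicate spread and 120 changed sign. The largest main value whose sign changed under some alternative was 0.51, that of Ndufa4l2 in HAN against PBS. With normexp background correction the HAN against PBS medians were -0.20 for all members and -0.19, -0.21, -0.20, -0.20 and -0.19 for complexes I to V. The AAP against HAN medians were 0.20 for all members and 0.17, 0.26, 0.28 and 0.25 for complexes II to V. This correction moved the median of all genes by 0.15 in HAN against PBS and by -0.12 in AAP against HAN, so relative to all genes the members' shift was larger still. With quantile normalisation the AAP against HAN medians were 0.055 for all members and 0.042, 0.060, 0.064 and 0.065 for complexes I, III, IV and V. With the slide as a fixed block the HAN against PBS medians were -0.16 for complex I and 0.057 for complex II. With 1 array left out in turn, the members' median ran from -0.02 to 0.05 in AAP against PBS, from -0.14 to -0.06 in HAN against PBS and from 0.09 to 0.16 in AAP against HAN. The causes were not tested. With the replicate block, the pairing by number left the medians at 0.03, -0.09 and 0.12 with 0 members called; all genes called went from 1 to 0 in both comparisons with PBS. The number of arrays limits what can be detected.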
